A study of Mus musculus with 6 samples.

Results

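Among 24015 genes counted in the microdissected arcuate nucleus (ARC) of adult female mice, 14 followed *Fezf1*, a transcription factor gene of the ventromedial hypothalamus (VMH), across 6 samples. The members were selected on their measured levels, by 3 limits. A member's level had to reach at least 3 CPM (counts per 1000000 counts of the sample) in some sample, its log2(CPM + 0.5) had to span at least 1.5 between the lowest and the highest sample, and the Pearson r of that value with that of *Fezf1* had to be at least 0.93. *Fezf1* itself and 7 further genes used as marks of VMH tissue (*Nr5a1*, *Cbln1*, *Sox14*, *Tac1*, *Adcyap1*, *Bdnf* and *Slc17a6*) were left out by name. The members are *Reln*, *Rspo3*, *C1ql2*, *Nptx2*, *C3*, *Chrm5*, *Rgs16*, *Cdh13*, *Col6a5*, *Gda*, *Ddn*, *Zfp831*, *Tmem212* and *Stoml3*. The limit on level was met by 13281 genes and the limits on level and range together by 541, or 535 once *Fezf1* and the genes left out are not counted. The 14 members are 2.62% of these 535, in which the median r with *Fezf1* was -0.15, and no gene had an r of -0.93 or below. The members were chosen by values of all 6 samples, so their r values, their ranges and the order of the samples are given as a description, without a test.

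RNA was amplified and sequenced from the ARC of 3 control females (Esr1fl/fl), which carry the floxed *Esr1* alleles and no Cre, and of 3 *Esr1*Nkx2-1Cre females, which carry the same alleles and express Cre from the *Nkx2-1* promoter. The mice were adults of 11 to 20 weeks by the study's methods, on a mixed background that the labels give as CD-1, 129P2 and C57BL/6 and the methods as CD-1 and 129P2. *Nkx2-1* is active early in the whole medial basal hypothalamus, so Cre acts in VMH as well as ARC cells of the mutants on *Esr1*, the gene of the estrogen receptor ERα. The ARC, which adjoins the VMH, was cut by hand from a 2 mm block of hypothalamus, and since no label ties a sample to an animal, p-values measure the spread between these samples only.

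*Esr1* had 65.2, 55.3 and 48.1 CPM in controls 1, 2 and 3, against 12.1, 9.66 and 6.99 CPM in mutants 1, 2 and 3, so the genotypes did not overlap. Between genotypes the log2 fold change was -2.59 (standard error, SE, 0.18, adjusted *p* = 0.000884 by the quasi-likelihood test of edgeR). Total counts were between 11792440 and 17877137 per sample, at which 3 counts correspond to between 0.168 and 0.254 CPM. Controls 1 and 2 stood apart from the rest. Control 1 held 17 *Fezf1* counts where the other libraries held between 120 and 785, and control 2 was nearly without pars tuberalis transcripts, with *Cga* at 3.13 CPM where the other libraries had between 369 and 589 CPM.

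The VMH is a glutamatergic nucleus that lies dorsal and lateral to the ARC and takes part in energy balance, glucose control and female sexual behavior. *Fezf1* encodes a zinc finger repressor needed for the VMH to form, and *Nr5a1* encodes SF-1, the nuclear receptor by which VMH neurons are most often recognized. The peptide PACAP (*Adcyap1*), BDNF and the vesicular glutamate transporter *Slc17a6* are found in many VMH neurons, although not in them alone. In bulk tissue, fewer cells of a type and less RNA per cell cannot be told apart.

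*Fezf1* had 1.15, 31.5 and 24.0 CPM in controls 1, 2 and 3, against 10.2, 47.8 and 51.8 CPM in mutants 1, 2 and 3, a range of 4.98 on the log2 scale. Control 1 lay far below the rest and mutant 1 was the next lowest, so the genotypes overlapped. Of the genes left out by name, *Cbln1* alone met the limits that the members meet. *Cbln1*, which encodes a secreted organizer of synapses, was at 11.8, 47.2 and 31.9 CPM in the controls, against 18.8, 76.2 and 76.9 CPM in the mutants (r = 0.94, n = 6).

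Other VMH marks followed *Fezf1* to very different degrees. *Nr5a1* had 3.59, 8.50 and 7.76 CPM in the controls, against 3.14, 19.1 and 24.0 CPM in the mutants, with mutant 1 and not control 1 the lowest, and its r with *Fezf1* was 0.82. *Slc17a6* (r = 0.84), *Bdnf* (r = 0.85) and *Adcyap1* (r = 0.88) likewise fell short of the limit. *Sox14*, a transcription factor gene, lay between 3.82 and 8.18 CPM in all 6 samples with an r of 0.40. *Tac1*, the substance P precursor of ventrolateral VMH neurons, ran the other way, at 51.5, 57.7 and 39.8 CPM in the controls and 38.0, 28.4 and 38.2 CPM in the mutants (r = -0.46). Of 16 other VMH genes at 3 CPM or more, *Gda*, *C1ql2* and *Nptx2*, which is also a gene of the lateral hypothalamus, were members and the median r was 0.47, and of 8 genes of the ventrolateral VMH none was a member and the median r was -0.12. The median r over the 13281 genes at that level was also -0.12. The 8 ventrolateral genes summed to between 318 and 335 CPM in the controls and between 237 and 250 CPM in the mutants. An r over all 6 samples does not separate that genotype difference from likeness to *Fezf1*. The same holds for *Tac1*, in which the genotypes did not overlap. The 14 genes are therefore described here by the rule that chose them, as genes that track *Fezf1*.

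Sequence was not used to choose the members. RefSeq windows of 300 bases on GRCm38.p6, from 250 bases before to 50 after the start of the gene, were at hand for 9 of the 14 members. Those of 4 genes are shown by the 250 bases before the start, 5′ to 3′ on the strand of the gene. *Fezf1* is shown as the gene the others were matched to (chr6:23248265-23248514, minus strand), *Reln* (chr5:22344706-22344955, minus strand) and *Chrm5* (chr2:112480818-112481067, minus strand) as members at opposite ends in base composition, and *Gda* (chr19:21472662-21472911, minus strand) as the most abundant member. Capitals mark a motif found by the search.
Fezf1: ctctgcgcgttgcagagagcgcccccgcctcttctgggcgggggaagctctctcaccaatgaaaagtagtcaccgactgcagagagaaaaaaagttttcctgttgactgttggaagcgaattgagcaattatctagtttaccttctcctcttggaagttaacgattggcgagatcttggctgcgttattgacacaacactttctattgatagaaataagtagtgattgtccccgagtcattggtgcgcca
Reln: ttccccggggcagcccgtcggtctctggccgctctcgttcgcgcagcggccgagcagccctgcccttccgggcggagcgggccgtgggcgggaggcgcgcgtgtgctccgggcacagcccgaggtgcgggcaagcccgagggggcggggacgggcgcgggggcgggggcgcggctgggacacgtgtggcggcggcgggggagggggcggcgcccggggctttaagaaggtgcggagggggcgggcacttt
Chrm5: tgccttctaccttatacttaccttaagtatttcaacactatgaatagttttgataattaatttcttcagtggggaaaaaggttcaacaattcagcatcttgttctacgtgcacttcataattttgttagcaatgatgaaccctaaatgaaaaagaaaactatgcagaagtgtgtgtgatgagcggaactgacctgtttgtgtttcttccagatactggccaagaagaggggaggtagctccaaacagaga
Gda: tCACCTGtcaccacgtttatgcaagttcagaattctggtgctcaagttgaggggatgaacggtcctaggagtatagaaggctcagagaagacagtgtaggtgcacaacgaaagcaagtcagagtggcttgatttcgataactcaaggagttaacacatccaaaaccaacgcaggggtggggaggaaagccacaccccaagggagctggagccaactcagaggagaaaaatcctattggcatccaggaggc
G and C made up 80% of the bases shown for *Reln*, 37.6% for *Chrm5*, 47.6% for *Fezf1* and 50% for *Gda*. Over the whole windows the median GC of the members was 55%, from 39% to 80.7%, beside 52.7% over 32851 windows of 27025 genes.

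Motifs were searched by their letters on both strands. Neither CAAGGTCA, the site by which SF-1 is known, nor its shorter form AAGGTCA, which every CAAGGTCA contains, was in any of the 9 windows, beside 1.76% and 5.38% of all genes. GGTCA and TGACC with 3 bases between them, the full estrogen response element, and TGACGTCA, the cAMP response element, were also absent, beside 0.0740% and 2.03% of all genes. TATAAA was in the windows of *C3* and *Tmem212* (15.7% of all genes) and CAGGTG, an E-box, in those of *Gda* and *Col6a5* (22.6% of all genes). The TATAAA of *C3* does not lie wholly before the start. That of *Tmem212* begins 49 bases before the start, on the strand opposite to the gene. An absent motif says only that these letters are not in these windows.

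Secreted signals and synaptic organizers made up 5 of the members. *Reln* encodes reelin, the extracellular protein that guides neuronal layering in development and modulates synapses in the adult. It had 23.5, 47.4 and 52.7 CPM in controls 1, 2 and 3, against 44.6, 54.9 and 72.5 CPM in mutants 1, 2 and 3. Control 1 was the lowest sample and mutant 3 the highest, and the genotypes overlapped. *Rspo3* encodes R-spondin 3, which enhances Wnt signaling. Its levels were 8.75, 22.8 and 26.3 CPM in the controls and 16.6, 23.6 and 26.6 CPM in the mutants. Apart from control 1 and mutant 1 the *Rspo3* values were close together, and its log2 fold change between genotypes, 0.18, was the smallest among the members.

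*C1ql2* and *Nptx2* encode secreted proteins that act at excitatory synapses, the first a C1q-like ligand and the second a neuronal pentraxin that gathers AMPA receptors. *C1ql2* had 3.12, 7.78 and 9.25 CPM in the controls, against 5.85, 9.59 and 14.8 CPM in the mutants. *Nptx2* had 4.75, 10.4 and 10.5 CPM in the controls, against 6.02, 13.0 and 14.8 CPM in the mutants. In both genes mutants 2 and 3 lay above every control, while mutant 1 lay below controls 2 and 3. *C3* encodes the central component of the complement cascade. It had 2.71, 10.9 and 14.6 CPM in the controls, against 9.41, 22.8 and 28.1 CPM in the mutants, 10.4-fold between the lowest and the highest sample. *C3* had the largest log2 fold change between genotypes among the members, 1.07 (SE 0.72, adjusted *p* = 0.754 by the quasi-likelihood test of edgeR), which did not pass the test.

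A receptor and a regulator of G protein signaling were members. *Chrm5* encodes the M5 muscarinic acetylcholine receptor. It had 3.53, 13.8 and 12.3 CPM in the controls, against 6.19, 18.4 and 22.9 CPM in the mutants. Mutants 2 and 3 lay above every control, and mutant 1 lay well below controls 2 and 3. *Rgs16* encodes a protein that speeds the shutdown of G protein signals. It had 2.78, 6.21 and 5.34 CPM in the controls, against 4.41, 7.05 and 9.69 CPM in the mutants. Its adjusted p-value, 0.740 by edgeR's quasi-likelihood test (log2 fold change 0.53, SE 0.37), was the lowest among the members.

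Adhesion and matrix were represented by *Cdh13*, which encodes T-cadherin, a cadherin anchored to the membrane by a lipid, and *Col6a5*, which encodes a chain of collagen VI. *Cdh13* had 48.3, 100.1 and 89.3 CPM in the controls, against 84.3, 115 and 139.8 CPM in the mutants. It had the narrowest range of the members, 1.52 on the log2 scale. *Col6a5* had 1.02, 5.31 and 4.56 CPM in the controls, against 2.71, 3.56 and 6.79 CPM in the mutants. Mutant 2 lay below controls 2 and 3 in *Col6a5*, which was the case in no other member, and its r of 0.93 was the lowest.

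*Gda* and *Ddn* encode proteins of dendrites. *Gda* is guanine deaminase, also called cypin, an enzyme of purine breakdown that binds PSD-95 and promotes dendrite branching. It had 83.1, 208 and 149.8 CPM in the controls, against 118, 236 and 250.2 CPM in the mutants. Per kilobase of exon its mean level, 28.4 CPM, was the highest among the members and that of *Col6a5*, 0.429 CPM, the lowest. *Ddn* encodes dendrin, a postsynaptic protein. It had 6.51, 14.3 and 17.7 CPM in the controls, against 11.7, 24.4 and 17.1 CPM in the mutants. Mutant 2 was the highest sample in *Ddn*, whereas mutant 3 was the highest in the other 13 members.

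*Zfp831*, which encodes a zinc finger protein, had the highest r with *Fezf1*, 0.99. It had 3.19, 23.0 and 14.1 CPM in the controls, against 11.8, 23.6 and 29.3 CPM in the mutants. Control 2 and mutant 2 were almost level. *Tmem212* encodes a membrane protein best known as a transcript of ciliated cells such as the ependyma that lines the ventricle. It had 0.949, 4.03 and 2.99 CPM in the controls, against 2.04, 4.76 and 5.41 CPM in the mutants (r = 0.98), with 14 counts in control 1. *Stoml3* encodes a stomatin-like protein that tunes mechanically gated channels in sensory neurons. It had 0.814, 8.22 and 13.2 CPM in the controls, against 3.22, 11.9 and 21.3 CPM in the mutants. Its range, 4.05 on the log2 scale, was the widest of the members and rests on 12 counts in control 1.

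**Figure D1:**
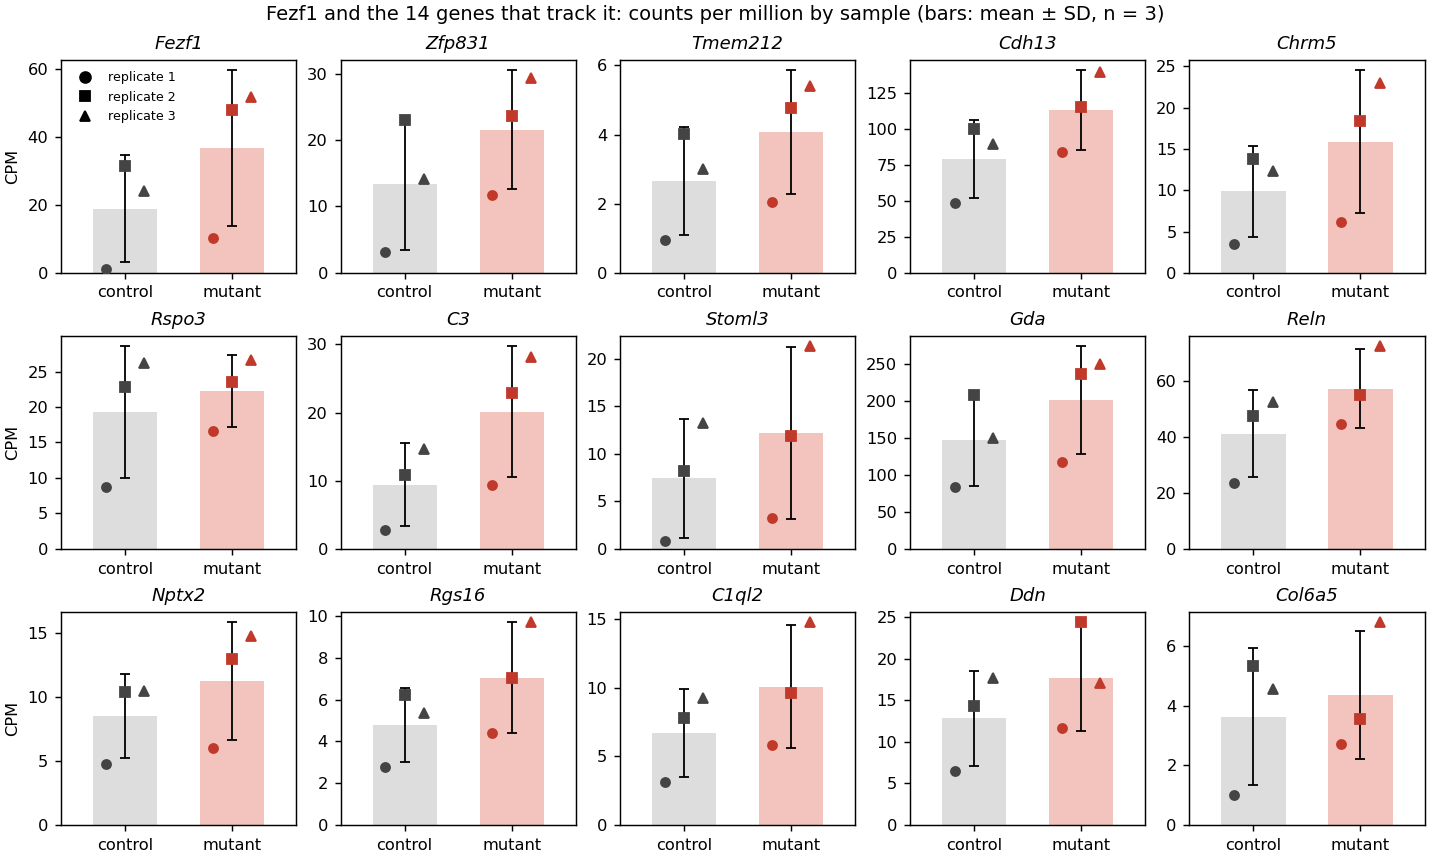
Level of *Fezf1* and the 14 members in CPM (y axis, a separate scale for each gene) in the 3 control and the 3 *Esr1*Nkx2-1Cre samples, with a marker for each replicate, bars at the genotype mean and error bars of 1 SD. Control replicate 1 (grey circle) is the lowest sample in every panel and mutant replicate 1 (red circle) the next lowest.

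The members ordered the samples nearly alike, as the plot of levels by sample shows. Control 1 was the lowest sample and mutant 1 the second lowest in all 14, an order that *Fezf1* has itself and that the limit on r largely fixes. Control 1 was the lowest in 15.1% of the 535 genes past the limits on level and range, which were not chosen by r. Mutants 2 and 3 lay above every control in 10 members. Controls 2 and 3 had no fixed order, since control 2 was higher in 7 members and control 3 in 7. The median member stood at -1.14 relative to its own mean in control 1 on the log2 scale, at -0.32 in mutant 1, at 0.19 and 0.17 in controls 2 and 3, and at 0.51 and 0.76 in mutants 2 and 3. The members moved less than *Fezf1* itself. For each log2 unit of *Fezf1* they moved by between 0.27 (*Cdh13*) and 0.76 (*Stoml3*) units, with a median of 0.34. Over the 91 pairs of members r was between 0.77 and 0.995 with a median of 0.94, and 54 pairs reached 0.93. High values between pairs follow largely from the rule, since each member was chosen for an r of at least 0.93 with *Fezf1*.

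Membership rested mostly on control 1. Without it, 4 of the 14 members kept an r of at least 0.93 with *Fezf1* over 5 samples, namely *Chrm5* (0.99), *Tmem212* (0.99), *Nptx2* (0.98) and *Gda* (0.97). The rule applied to those 5 samples gave 6 genes, of which *Chrm5* was the member shared. The limit on range applied there too, and 3 of the 14 members met it. Without control 1 and mutant 1, the 2 samples farthest from the median of *Fezf1*, r was at least 0.93 over the remaining 4 samples in *Tmem212* (0.98), *Chrm5* (0.96), *Gda* (0.95) and *Cdh13* (0.94), and was 0.92 in *Nptx2*. In *Stoml3* (0.49), *Ddn* (0.43), *Col6a5* (0.17) and *Rspo3* (-0.016) the relation no longer held and rests on those 2 samples. Among the genes left out by name, r without control 1 went from 0.82 to 0.98 in *Nr5a1*, from 0.84 to 0.98 in *Slc17a6*, from 0.94 to 0.99 in *Cbln1* and from 0.40 to 0.86 in *Sox14*, but from 0.88 to 0.81 in *Adcyap1* and from 0.85 to 0.13 in *Bdnf*.

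**Figure D2:**
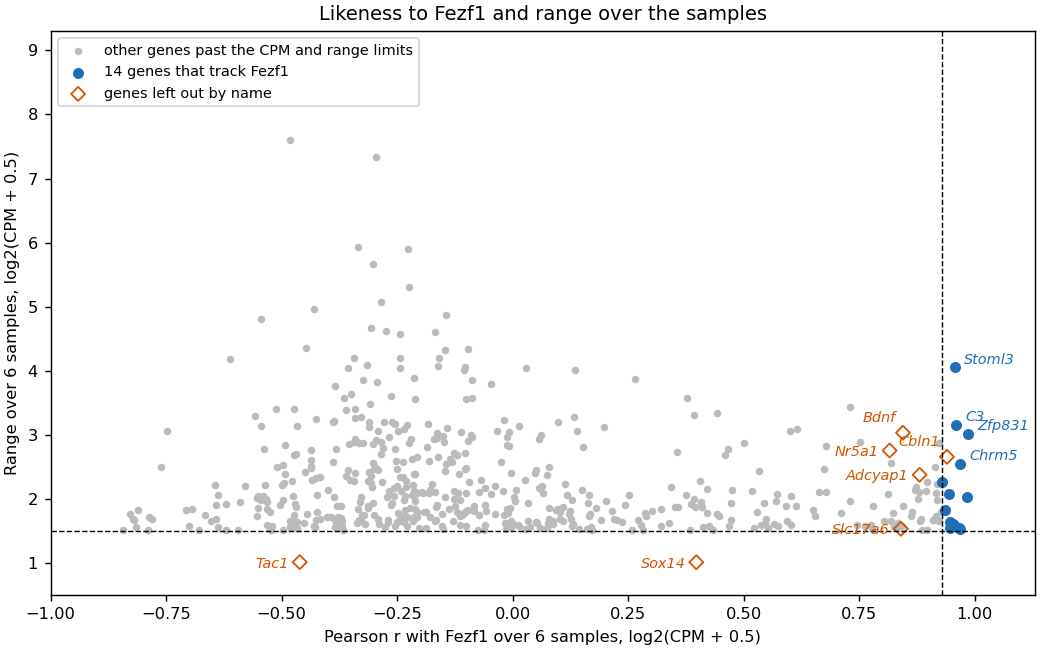
Pearson r with *Fezf1* over the 6 samples (x axis) against the range between the lowest and the highest sample (y axis, log2 units) for the genes past the limits on level and range (grey), the 14 members (blue) and the 7 genes left out by name (orange diamonds). Dashed lines mark the limits at 0.93 and 1.5, and *Cbln1* is the orange diamond inside both.

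The limits cut through a continuous spread of values. Just inside the limit on r were *Col6a5* (0.93), *Ddn* (0.936) and *C1ql2* (0.945), and just outside were *Ccdc33* (0.928), *4930451C15Rik* (0.923) and *Ccdc153* (0.923), a gene of motile cilia. *Cdh13* (1.52) and *Nptx2* (1.54) were just inside the limit on range, and *Thy1* (1.44), with an r of 0.97, and *Gm2694* (1.36) just outside. The limit on level excluded no gene that met the other 2 limits, and the members with the lowest peak levels were *Tmem212* (5.41 CPM) and *Col6a5* (6.79 CPM). At any range, 86 genes met the limits on level and r.

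The members were on average higher in the mutants than in the controls, but none passed the test of the genotype difference without a replicate block. Log2 fold changes were positive in all 14, from 0.18 to 1.07 with a median of 0.51. The tested genes past the limits on level and range, which include the members, had a higher median, 0.58. Adjusted p-values of the members lay between 0.740 and 0.954 by edgeR's quasi-likelihood test. That count of 0 stands beside 0.118% of the 15236 genes tested, and at an unadjusted p-value under 0.05 it was also 0, beside 8.85%. With the replicate number as a block, 11 members had an unadjusted p-value under 0.05, beside 12% of all genes tested, and 1 passed after adjustment, beside 0.807%. That block rests on replicate numbers, and the study does not state that these pair the samples. DESeq2 called 0 members, beside 1.26%. In none of the 14 were all mutants on the same side of all controls, which was so in 14.8% of all genes tested. *Fezf1* itself had a log2 fold change of 0.92 (SE 1.19, adjusted *p* = 0.886 by the quasi-likelihood test of edgeR), and the members follow it by construction, so nothing about genotype is read from these counts.

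The size of the members' difference depended on which samples were in the fit. The median log2 fold change over all genes tested was 0.0036. It was 0.58 over the tested genes among the 541 past the limits on level and range. That set counts *Fezf1* and genes left out by name, so it is not the 535 genes named above. Without control 1 the median of the members was 0.17 and without mutant 3 it was 0.22. Of the genes left out by name, the mutants and the controls did not overlap in *Bdnf* (log2 fold change 1.19, SE 0.59, adjusted *p* = 0.646 by the quasi-likelihood test of edgeR) or in *Tac1* (-0.55, SE 0.17, adjusted *p* = 0.355, the same test). For a gene measured in 3 and 3 females, the smallest p-value of a two-sided exact permutation test is 0.1.

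**Figure D3:**
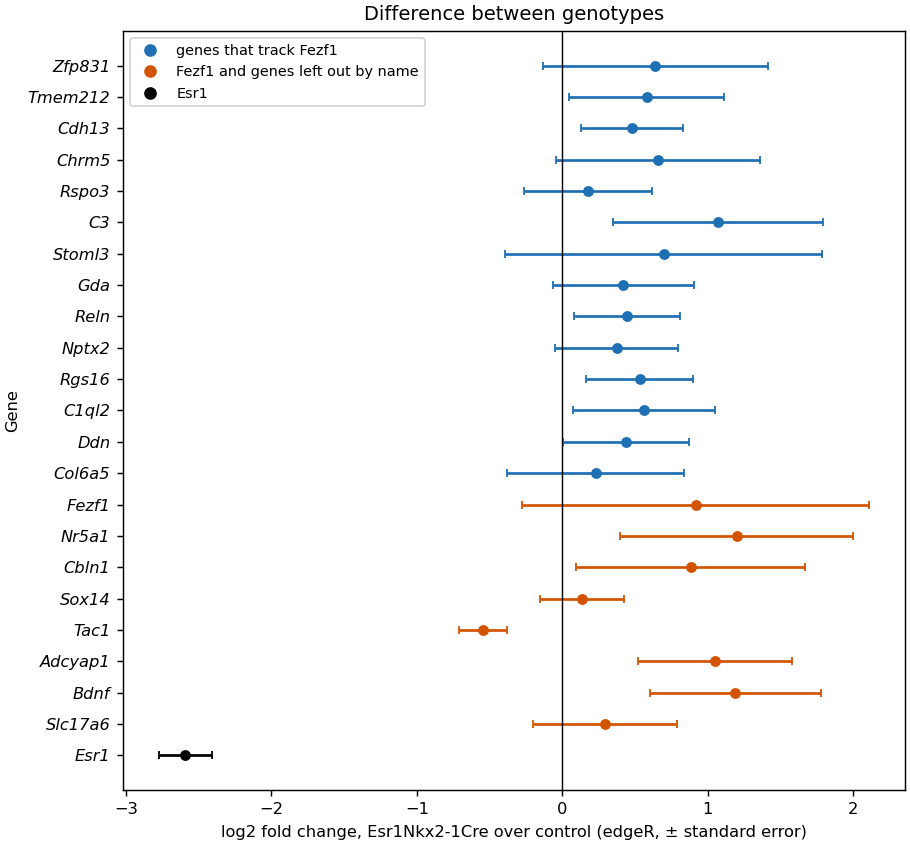
Log2 fold change of *Esr1*Nkx2-1Cre over control samples (x axis, points, with bars of 1 standard error from edgeR) for the 14 members (blue), *Fezf1* and the genes left out by name (orange) and *Esr1* (black). The members lie between 0.18 and 1.07, while *Esr1* lies at -2.59.

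Markers of other cell types were read in the same libraries beside the members. Most listed transcripts of motile cilia had a positive r with *Fezf1*. *Foxj1*, the master regulator of motile cilia, was at 6.98, 10.7 and 10.1 CPM in the controls, against 7.80, 12.3 and 12.7 CPM in the mutants, an r of 0.94 over a range too narrow for membership, and 0.999 without control 1. Among 32 genes of motile cilia at 3 CPM or more, a list written after their values were seen, the median r was 0.80. An r over 0 was found in 28, beside 41.9% of the 13281 genes at that level, and over 0.8 in 16, beside 3.98%. Since the values were known when the list was made, these shares are a description only. The summed level of the 34 genes listed was 578, 703 and 842 CPM in the controls and 599, 731 and 803 CPM in the mutants. That sum was lowest in control 1 and mutant 1, but highest in control 3, where *Fezf1* was not highest. The 11 tanycyte and ependymal genes, of which *Tmem212* is a member, had a median r of 0.31 but were widely spread. In 7 of them r was over 0 and in 3 over 0.8. It was 0.98 in *Tmem212*, 0.94 in *Foxj1*, 0.92 in *Ccdc153* and 0.76 in *Rarres2*, but -0.56 in *Nes* and -0.75 in *Rax*.

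Neuronal genes also followed *Fezf1*. The 8 general neuronal genes had a median r of 0.81, and *Nefl* (0.95), a neurofilament gene, and *Stmn2* (0.94), a regulator of microtubules, met the limit on r without the range. Their summed level was 3921, 4775 and 4674 CPM in the controls and 4319, 5808 and 5220 CPM in the mutants. Summed genes of glutamatergic neurons were likewise lowest in control 1 and mutant 1, at 737 and 740 CPM against 935 to 1060 CPM elsewhere. Genes of GABA neurons ran the other way, with a median r of -0.60 over 7 genes and summed levels of 1348 and 1432 CPM in mutants 2 and 3 against 1489 to 1738 CPM elsewhere. The nuclear RNA *Malat1* was lowest in mutant 3 at 6667 CPM and highest in mutant 1 at 18557 CPM (r = -0.64).

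The ARC genes as a set did not follow the members. The 12 ARC genes at 3 CPM or more had a median r of -0.23 and none was a member. An r over 0 was found in 5 of them, among them *Pomc* (0.38) and *Ghrh* (0.31), both lowest in control 1. The 14 ARC genes listed summed to 1172, 1099 and 1079 CPM in the controls and 1778, 1198 and 1277 CPM in the mutants. Within each genotype that sum was highest in control 1 and mutant 1, where the members were lowest. *Agrp*, the agouti-related peptide of hunger neurons, was at 39.5, 32.9 and 26.1 CPM in the controls, against 40.1, 30.4 and 39.6 CPM in the mutants (r = -0.42), so it was present at similar levels in control 1 and mutant 3, which differed most in the members. *Tbx3*, a transcription factor gene of ARC neurons, ran opposite to *Fezf1*, at 277 and 282 CPM in control 1 and mutant 1 and at 195 CPM in mutant 3 (r = -0.83). Genes of astrocytes had a median r of 0.50, of oligodendrocytes 0.43, of microglia 0.23, of endothelial cells 0.065 and of the pars tuberalis -0.33. The astrocyte genes summed to between 3829 and 6283 CPM in the controls and between 4208 and 5957 CPM in the mutants, and the oligodendrocyte genes to between 691 and 1254 CPM and between 1703 and 1891 CPM. No listed gene of any cell type was at 0 in every sample. The part of cell types, of the cut of the dissection and of RNA quality in the members' levels was not tested.

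**Figure D4:**
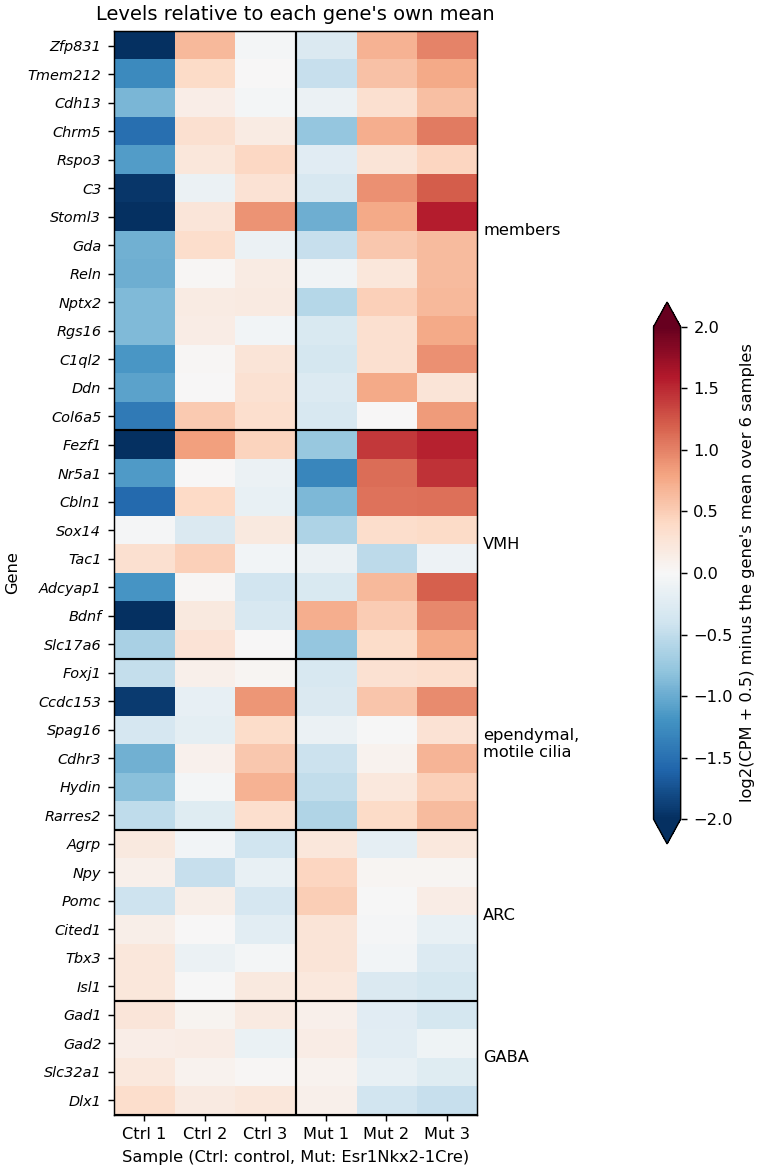
Log2(CPM + 0.5) minus the gene's own mean over the 6 samples (color, blue below and red above, with values beyond 2 shown at the end of the scale) for the 14 members, the VMH genes and hand-picked genes of ependyma and motile cilia, the ARC and GABA neurons. Control 1 is blue in all 14 members and mutant 3 is red in them. In each ARC gene shown mutant 1 is the highest mutant, and in each but *Pomc* control 1 is the highest control. Of the listed ARC genes not shown, control 1 is the highest control in *Cartpt*, *Kiss1* and *Hmx3*, and not in the others.

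The members were also like several genes that followed *Fezf1* themselves, with r between 0.82 (*Nr5a1*) and 0.94 (*Cbln1*), which the rule favors. The median r of the members was 0.92 with *Foxj1*, 0.92 with *Cbln1*, 0.91 with *Adcyap1*, 0.86 with *Slc17a6*, 0.85 with *Nr5a1* and 0.84 with the synaptic gene *Snap25*, each over the same 6 samples. Against *Esr1* it was -0.55 and against *Agrp* -0.34. Correlations over these 6 samples, which differed in library depth and were cut by hand, are descriptions of these libraries.

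In position and size the members had little in common. They lie on 10 chromosomes of the NCBIM37 assembly, with *Zfp831* (174469035 to 174536333) and *Chrm5* (112319229 to 112320974) on chromosome 2, *Tmem212* (27764988 to 27795290) and *Stoml3* (53292649 to 53312424) on chromosome 3, *Reln* (21390272 to 21850523) and *Nptx2* (145306756 to 145318347) on chromosome 5, and *Rgs16* (155587479 to 155592598) and *C1ql2* (122237159 to 122239748) on chromosome 1. *Cdh13* (chromosome 8, 120807633 to 121848821), *Rspo3* (chromosome 10, 29172915 to 29255673), *C3* (chromosome 17, 57343397 to 57367559), *Gda* (chromosome 19, 21465797 to 21547935), *Ddn* (chromosome 15, 98634213 to 98638356) and *Col6a5* (chromosome 9, 105758400 to 105862974) stand alone on theirs. Gene lengths ran from 1.75 kb for *Chrm5*, annotated with a single exon, to 1041 kb for *Cdh13*, with a median of 27.2 kb beside 26.4 kb over 12299 annotated genes at 3 CPM or more. *Reln* and *Ddn* share 1.24% and 4.52% of their exon bases with a gene on the opposite strand that the count tables do not list, and the other members share none. By family of gene symbol, the members held 1 receptor for transmitters or hormones, 1 cadherin, 1 collagen and 1 regulator of G protein signaling, each 7.14% of the members. These families made up 3.14%, 0.739%, 1.85% and 0.185% of the 541 genes past the limits on level and range, and the homeobox, Sox, Fox, Zic and nuclear receptor genes, which made up 6.65% of the 541, had no member.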

How the data were processed

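The ARC of 3 control and 3 mutant (*Esr1*Nkx2-1Cre) females was profiled by RNA-seq. By the study's methods 10 to 50 ng of RNA per sample, and by the labels 50 ng, was amplified and read as 50 bp reads. The authors mapped the reads with TopHat2 (2.1.0) and deposited HTSeq (0.6) counts for 24015 gene symbols, without normalization. The deposited counts carry no coordinates. The submitters' processing notes name mm9 and the methods NCBI37/mm10, so positions are those of GENCODE on NCBIM37, matched by symbol. Whether counting used strand is not given in the sources used here.

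Counts were divided by the sample total to give CPM, and *Fezf1* was correlated with each gene on log2(CPM + 0.5). The genotypes were compared with edgeR's quasi-likelihood test (edgeR 4.0.16, limma 3.58.1, R 4.3.3; TMM, default filter on low counts, 15236 genes, Benjamini-Hochberg adjustment, threshold 0.05), without a replicate block. DESeq2 (1.42.0), which the authors used in version 1.14.1, was an alternative. The fit and the rule were tested on simulated data. No pair of libraries looked like a repeat deposit, since the chi-square per degree of freedom between pairs was 6.93 or more. Floors of 3 counts cover counting error only. Members and marker lists were chosen with earlier results of these data known. The genes named are *Fezf1*, the 7 genes left out, *Esr1*, all members, the genes nearest each limit, those with the lowest r and genes of the marker lists. Exceptions are named as such.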

Additional observations from a re-analysis of the deposited data

How the results depend on the processing

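The number of genes that met the rule, 14, was 24 with a range of at least 1, 24 with an r of at least 0.90, 6 with an r of at least 0.96 and 23 with Spearman's rho, which kept 10 of the 14 members. With each sample left out in turn it was between 6 and 27, the lowest without control 1. With anchors chosen after seeing the data it was 8 for *Nr5a1*, 7 for *Adcyap1* and 9 for *Slc17a6*, with 1, 2 and 3 members shared, and 12 for *Cbln1* and 16 for *Foxj1*, each with 6 shared. Without the 2 samples farthest from the median of *Fezf1* it was 17, with no member shared. Yet 4 of the 14 members kept an r of at least 0.93 there. These 4 missed the limit on range, which was applied to the samples left. TMM or RLE scaling gave 14, with 13 shared. The number of genes called between genotypes, 18, was 191 with DESeq2 (97 higher and 94 lower), 200 with DESeq2 after edgeR's filter, 106 with a minimum of 1 count in any sample and 123 with the replicate block, and between 7 and 46 with each sample left out. Deviations from the genotype means had an r of 0.281, 0.0466 and -0.0026 between replicates of the same number. Between replicates of unlike numbers r was from -0.263 to 0.21. With 3 samples per genotype these values cannot decide whether the numbers pair the samples, and the study does not state pairing. With the replicate block 1 of the 14 members was called, beside 0.807% of all genes tested, and 11 had an unadjusted p-value under 0.05. The member called was *C3* (log2 fold change 1.17, adjusted *p* = 0.0199, edgeR's quasi-likelihood test). *Cbln1*, which is no member, also passed that test of edgeR (0.86, adjusted *p* = 0.0435). With each sample left out, 0 members were called and their median log2 fold change was between 0.17 and 0.75. The fold change changed sign with a sample left out in *Col6a5* (-0.26 to 0.66), *Rspo3* (-0.18 to 0.45), *Sox14* (-0.052 to 0.41) and *Slc17a6* (-0.066 to 0.63). These were 6 of 299 comparisons over 23 genes, of which 291 kept their direction and their side of the threshold. Causes were not tested. Each of the 9 members with a promoter had 1 window, so no other window was compared. Depth limits the lowest values, such as the 12 counts of *Stoml3* in control 1.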

Other observations

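Among genes past the limits on level and range, the lowest r values with *Fezf1* were those of *Shroom1* (-0.84), *Fosl2* (-0.83), *Ush1c* (-0.82), *Gm14378* (-0.82) and *Atf3* (-0.81), none of which reached -0.93. *Fosl2*, an AP-1 transcription factor gene, was at 87.3, 62.9 and 41.2 CPM in controls 1, 2 and 3 and at 62.8, 25.5 and 29.5 CPM in mutants 1, 2 and 3. *Atf3*, a gene induced by cell stress, was at 10.7, 6.49 and 3.70 CPM in the controls, against 6.70, 3.30 and 5.27 CPM in the mutants. Control 1 was the highest sample for all 5 genes. The 10 immediate early genes listed as activity markers had a median r of 0.032, and 5 of them had an r above 0, among them *Npas4* (0.68) and *Fos* (0.14).

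Without control 1 the rule gave *Chrm5* together with *Chrna4*, *Cnr1*, *Glra1*, *Gpr149* and *Tpbg*, names chosen after their values were seen. *Cnr1*, which encodes the cannabinoid receptor CB1, was at 43.8, 119 and 89.7 CPM in the controls, against 40.2, 121 and 135 CPM in the mutants. Its r with *Fezf1* was 0.86 over 6 samples and 0.97 without control 1, and mutant 1 was its lowest sample.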
